A study of Mus musculus with 14 samples.

Results

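The genes described here are those of potassium channels and their partners whose symbols start with Kcn. The rule took every probe set whose single platform symbol starts with these letters. It gave 90 probe sets of 62 genes, out of 22626 probe sets tested and 12393 named genes. A gene with several probe sets was read from the brightest on average over the 14 arrays, a choice that used the level and not the genotype. All 62 genes were tested, with no filter on low signal. Affymetrix arrays had been hybridised with total striatal RNA of mice 6 weeks old, 7 R6/2 and 7 wild-type, on a CBAxC57BL/6 background. The R6/2 line models Huntington disease: its transgene holds HTT exon 1 with an expanded CAG repeat under the human promoter, and the mouse's own Htt genes are intact. Saline had been injected in both genotypes 30 to 60 minutes before they were killed, because they were the controls of 2 drug studies. Titles that start with M.C (4 arrays per genotype) or Mith (3 arrays per genotype) were taken as the cohorts. Replicate numbers were given here in record order, only as names, and pair no arrays across the genotypes. Nothing in the labels ties each array to its own animal. The p-values therefore reflect variation among arrays, which may be technical, and precision is limited by how few arrays there were.

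Potassium channels set the resting potential of a neuron, repolarise it after each spike and delay or space its firing. Each channel has pore-forming subunits, and many carry auxiliary subunits that change their gating or their transport to the membrane. Striatal projection neurons are known for a resting potential held low by inward rectifiers and for a slow ramp to the spike that A-type currents shape. Fast-spiking interneurons of the same tissue rely on rapidly closing Kv3 channels. Astrocytes clear extracellular potassium through inward rectifiers of their own.

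Part of the family was lower in R6/2 striatum. Differences are R6/2 minus wild-type on the log2 scale with cohort as a term, ± gives the SE, and a gene was called when limma's moderated test gave it a p under 0.05 after Benjamini-Hochberg adjustment across the 22626 probe sets. At that threshold 2.55% of all probe sets were called, 2.19% lower and 0.362% higher in R6/2. Of the 62 genes 8 fell (12.9%), against 2.04% of all 12393 named genes, and 0 rose, against 0.476%. The 8 were Kcnip2, Kcnj4, Kcnab1, Kcnj10, Kcnc1, Kcna1, Kcnab2 and Kcnip1, in order of size. At an unadjusted p under 0.05, 17 were lower, against 8.69% of all named genes, and 1, Kcnj9, was higher, against 6.25%. The falls held 4 of 15 auxiliary subunit genes and 4 of 47 pore-forming genes. The median difference of the 62 genes was -0.04, with a range from -0.95 to 0.11, and the median over all named genes was 0.01. A difference below 0 was found in 38 of the 62 (61.3%) and in 43.4% of all named genes. All 8 falls lay among the 38 members whose mean signal was above the median of all probe sets, 7.10. Among all genes above that median 3.19% fell. For 32 of the 62 genes the 95% interval of the difference lay within 0.2 of 0 on either side.

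**Figure D1:**
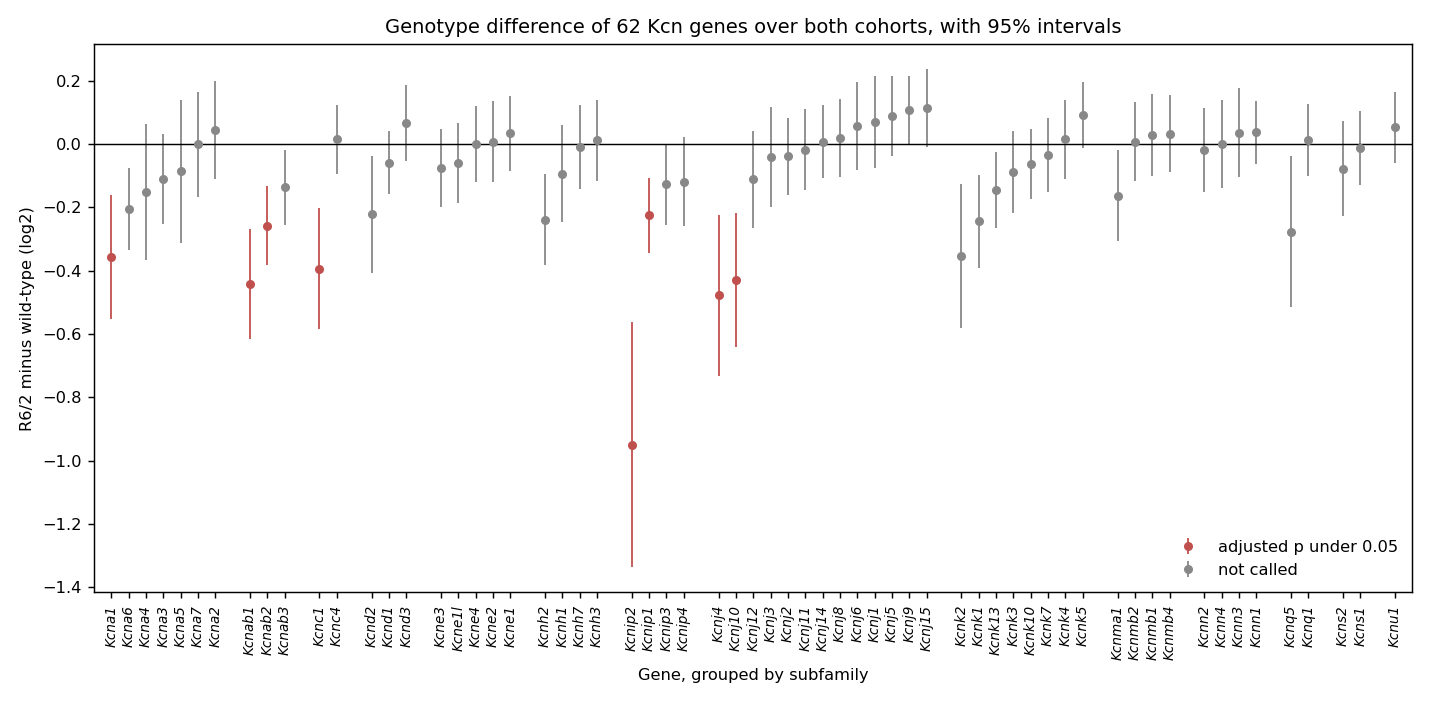
Genotype difference (R6/2 minus wild-type, log2, cohort as a term) of each of the 62 Kcn genes, grouped by subfamily along the horizontal axis. Bars are 95% intervals and red marks the 8 genes with adjusted p under 0.05. All 8 lie below 0, with Kcnip2 lowest at -0.95, and most others lie near 0.

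The count of falls changed when single arrays were left out. It was 2 without R6/2 replicate 1, R6/2 replicate 7 or wild-type replicate 1, 4 or 7. Leaving out wild-type replicate 3 gave 3 falls, leaving out R6/2 replicate 3 gave 4, and leaving out R6/2 replicate 2 gave 5. Leaving out wild-type replicate 5 raised the count to 12. The share of all named genes called in these fits is not given here, so a change over the whole table cannot be told apart. Kcnip2 and Kcnab1 were called in all 14 fits with 1 array left out. The other 6 genes lost their call without R6/2 replicate 1 or 7 or wild-type replicate 1, 4 or 7. In addition, Kcnab2 lost it without R6/2 replicate 2, Kcnc1 without wild-type replicate 3, and Kcnj10 without R6/2 replicate 3 or wild-type replicate 3. Kcnip1 also lost it without R6/2 replicate 3 or 6 or wild-type replicate 3 or 6, and Kcnj4 without R6/2 replicate 2 or 3 or wild-type replicate 2, 3 or 6. Kcna1 kept it only without R6/2 replicate 5 or wild-type replicate 5 or 6. The scale of the values and the choice of probe set also ended calls. With the values as deposited Kcna1, Kcnip1 and Kcnj4 lost theirs (adjusted p from 0.0522 to 0.0725), and after quantile normalization Kcnab2 and Kcnc1 did as well (0.0652 and 0.141). With trended and robust variances Kcna1 lost its call (adjusted p = 0.0538). With all probe sets of a gene averaged, Kcnab2 (adjusted p = 0.0571) and Kcnip1 (0.717) lost theirs and Kcnip3 gained one. With no cohort term Kcnip2 alone was called.

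RNA quality was read from the Actb control probe sets as their 3′ minus 5′ difference. Its mean was 0.608 ± 0.181 (SD, n = 7) for R6/2 arrays and 0.373 ± 0.143 (SD, n = 7) for wild-type arrays (exact two-sided permutation p = 0.0210 over all 14 arrays, and 0.0186 with genotype permuted within cohorts). Within M.C the difference between genotypes was 0.253 (exact permutation p = 0.114) and within Mith it was 0.211 (exact permutation p = 0.2, where the smallest p possible is 0.1). The same measure from the Gapdh control probe sets differed by 0.191 over all 14 arrays (exact permutation p = 0.0321). Its difference was 0.284 within M.C (exact permutation p = 0.0571) and 0.067 within Mith (exact permutation p = 0.4). With the Actb measure as a covariate 0 of the 62 genes and 0.25% of all named genes fell, and all 8 genes called without it were still below 0. The Actb difference moved with genotype, and its part in the falls was not tested. R6/2 replicate 4, with the lowest mean Spearman correlation with its cohort (0.981), changed the count to 7 when left out.

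The largest fall was in an auxiliary subunit of Kv4 channels. Kcnip2 encodes KChIP2, a calcium-binding partner that raises the surface level of Kv4 channels and slows their inactivation. In M.C its centred log2 signal was 8.55, 8.41, 8.52 and 8.34 on the wild-type arrays and 7.21, 6.42, 7.44 and 7.60 on the R6/2 arrays. In Mith it was 7.48, 8.15 and 8.32 in wild-type and 7.53, 7.74 and 7.17 in R6/2. The genotypes were well apart in M.C and overlapped in Mith, where wild-type replicate 5 lay below 2 of the R6/2 arrays of that cohort. Over both cohorts Kcnip2 fell to 51.8% of wild-type (-0.95 ± 0.18, adjusted p = 0.0113). A dimmer probe set of the gene, with a mean of 6.29 against 7.78, gave -0.02 ± 0.05 (adjusted p = 0.915), so the fall rests on 1 of 2 probe sets. With the Actb covariate the difference was -0.50 (adjusted p = 0.262).

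Of the other KChIP genes 1 fell. Kcnip1 encodes KChIP1, another calcium-binding partner of Kv4 channels. It ran from 7.71 to 7.92 in M.C wild-type and from 7.51 to 7.75 in M.C R6/2, and from 7.97 to 8.09 in Mith wild-type and from 7.66 to 7.85 in Mith R6/2. The groups overlapped in M.C and were apart in Mith, and over both cohorts Kcnip1 fell to 85.5% of wild-type (-0.23 ± 0.06, adjusted p = 0.0412). Its other 3 probe sets ran from -0.11 to 0.15, and the mean of its 4 probe sets gave -0.04 (adjusted p = 0.717). Kcnip3, which encodes a KChIP that also acts as a transcriptional repressor and is known as DREAM or calsenilin, was at -0.13 ± 0.06 (adjusted p = 0.333), but its dimmer probe set was called at -0.29 ± 0.07 (adjusted p = 0.0383). Kcnip4 was at -0.12 ± 0.07 (adjusted p = 0.436). All 4 KChIP genes were below 0 and 2 of them were called.

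Kvβ subunits bind the inner face of Kv1 channels, and some of them speed inactivation. Kcnab1, which encodes Kvβ1, was at 10.32, 10.15, 10.40 and 10.61 on the M.C wild-type arrays and 9.55, 9.83, 9.88 and 9.94 on the M.C R6/2 arrays. In Mith it was at 10.40, 10.61 and 10.49 in wild-type and 10.09, 10.30 and 10.29 in R6/2. Within each cohort no R6/2 array reached the lowest wild-type array. That held for 2 of the 62 genes, Kcnab1 and Kcnc1, and for 0.984% of all named genes. Across all 14 arrays without regard to cohort it held for 0 of the 62 and for 0.403% of named genes. Over both cohorts Kcnab1 fell to 73.6% of wild-type (-0.44 ± 0.08, adjusted p = 0.00962), and its other probe set was called as well at -0.73 ± 0.13 (adjusted p = 0.00795). With the Actb covariate the difference was -0.42, close to the value without it, with adjusted p = 0.137.

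Kcnab2, which encodes Kvβ2, fell to 83.7% of wild-type (-0.26 ± 0.06, adjusted p = 0.0269). Its signal was from 9.50 to 9.69 in M.C wild-type and from 9.22 to 9.38 in M.C R6/2, with no overlap, and from 9.31 to 9.60 in Mith wild-type and from 9.18 to 9.32 in Mith R6/2, with overlap. Its other probe set gave -0.50 ± 0.18 (adjusted p = 0.166), lower but with a wider error. Kcnab3 was at -0.14 ± 0.06 (adjusted p = 0.245), and its dimmer probe set was on the other side of 0 at 0.03 ± 0.08 (adjusted p = 0.924). Thus 2 of 3 Kvβ genes fell, and the median of the 3 by the probe sets used was -0.26. The other auxiliary genes did not pass. The 5 Kcne genes, single-pass partners of several Kv channels, ran from -0.08 (Kcne3, adjusted p = 0.586) to 0.04. Kcnmb4, the BK channel subunit of neurons, was at 0.03 ± 0.06 with a 95% interval from -0.09 to 0.16.

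**Figure D2:**
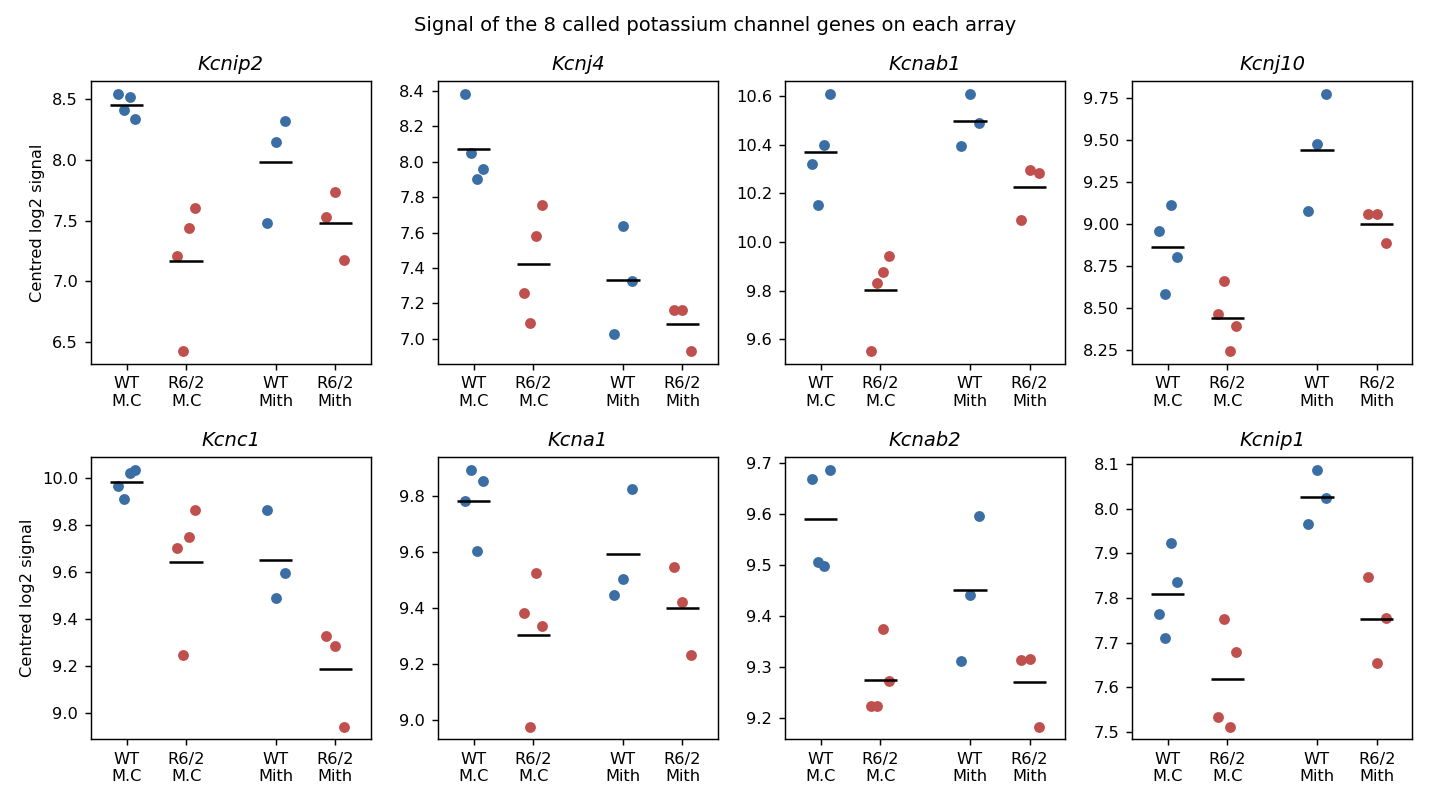
Centred log2 signal of the 8 called genes on each of the 14 arrays, by cohort and genotype. Points are arrays (blue for wild-type, red for R6/2) and lines are group means. Kcnab1 and Kcnc1 show no overlap of the genotypes within either cohort, while Kcnip2 overlaps in Mith through wild-type replicate 5 at 7.48.

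Among the voltage-gated pores 2 of 20 genes fell. Kcnc1 encodes Kv3.1, a fast channel that lets neurons fire at high rates. It was at 9.97, 9.91, 10.02 and 10.03 in M.C wild-type and 9.70, 9.25, 9.75 and 9.86 in M.C R6/2. In Mith it was at 9.86, 9.49 and 9.60 in wild-type and 9.33, 9.29 and 8.94 in R6/2. All 7 R6/2 arrays were below the wild-type arrays of their cohort, and Kcnc1 fell to 76.1% of wild-type (-0.39 ± 0.09, adjusted p = 0.0297). Pvalb, the marker of fast-spiking interneurons, was at -0.25 ± 0.12 (adjusted p = 0.333) and was not called. Of 5 measured interneuron markers 3 fell, Sst, Nos1 and Slc18a3, and the median of the 5 was -0.31. The mean level of the 5 ran from 8.55 to 8.84 on wild-type arrays and from 8.26 to 8.53 on R6/2 arrays. The part of these markers in the Kcnc1 result was not tested. With the Actb covariate Kcnc1 was at -0.27 (adjusted p = 0.361).

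Kcna1 encodes Kv1.1, a channel of axons that limits repetitive firing. It ran from 9.61 to 9.90 in M.C wild-type and from 8.98 to 9.53 in M.C R6/2, with no overlap. In Mith it ran from 9.45 to 9.83 in wild-type and from 9.23 to 9.55 in R6/2, with overlap. It fell to 78.1% of wild-type (-0.36 ± 0.09, adjusted p = 0.0492), just inside the threshold, and was at -0.17 (adjusted p = 0.534) with the Actb covariate. Kcna1 was the 1 gene called of 7 in its subfamily, and differences between the members were not tested. Kcna2, which encodes a Kv1 pore that assembles with Kv1.1, was at 0.04 ± 0.07 with an interval from -0.11 to 0.20, and Kcna4, the A-type Kv1 pore, was at -0.15 ± 0.10 (adjusted p = 0.532) with an interval from -0.37 to 0.06.

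The Kv4 pores themselves did not pass. Kcnd2 encodes Kv4.2, a pore that KChIP subunits join. In M.C it ran from 8.83 to 9.07 in wild-type and from 8.36 to 8.85 in R6/2, and in Mith from 9.30 to 9.53 and from 9.24 to 9.57. The groups overlapped in both cohorts. Kcnd2 was at -0.22 ± 0.09 (adjusted p = 0.217), its 3 probe sets ran from -0.22 to -0.13, and Kcnd3, another A-type pore, was at 0.07 ± 0.06 (adjusted p = 0.637). The interval of Kcnd2, from -0.41 to -0.04, does not overlap that of its partner Kcnip2, from -1.34 to -0.56, by the probe sets used. It does overlap that of the dimmer Kcnip2 probe set, from -0.13 to 0.10. The difference between these 2 genes was not tested.

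The remaining voltage-gated genes were not called. Kcnh2, the ERG1 pore, was at -0.24 ± 0.07 (adjusted p = 0.0747). Kcnh1, the EAG1 pore, was at -0.09 ± 0.07, and Kcnh3, an ELK pore of the forebrain, was at 0.01 ± 0.06 with an interval from -0.12 to 0.14. Kcnq5, an M-current pore, was at -0.28 ± 0.11 (adjusted p = 0.239). Kcns2, a silent subunit that joins other Kv pores, was at -0.08 ± 0.07. Kcnc2, Kcnq3 and Kcnh4 were not analysed here.

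Of the 13 inward rectifier genes 2 fell and the median was 0.01. Kcnj4 encodes Kir2.3, a rectifier of the Kir2 type that holds the resting potential. It was at 8.38, 8.05, 7.90 and 7.96 in M.C wild-type and 7.26, 7.09, 7.58 and 7.75 in M.C R6/2. In Mith it was at 7.03, 7.64 and 7.33 in wild-type and 7.16, 7.16 and 6.93 in R6/2. The genotypes were apart in M.C and overlapped in Mith, where wild-type replicate 5 was again the lowest wild-type array. Over both cohorts Kcnj4 fell to 71.8% of wild-type (-0.48 ± 0.12, adjusted p = 0.0433), and with the Actb covariate it was at -0.26 (adjusted p = 0.477). Kcnj2, which encodes the related Kir2.1, had a mean signal of 3.53, near the lowest of all probe sets (3.09), so its difference of -0.04 carries little information.

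Kcnj10 encodes Kir4.1, the main potassium channel of astrocytes, also made by oligodendrocytes. It was at 8.96, 8.58, 9.11 and 8.80 in M.C wild-type and 8.46, 8.66, 8.24 and 8.40 in M.C R6/2. In Mith it was at 9.08, 9.47 and 9.77 in wild-type and 9.06, 9.06 and 8.89 in R6/2. The groups overlapped in M.C through 1 array of each genotype and were apart in Mith by a small margin. It fell to 74.2% of wild-type (-0.43 ± 0.10, adjusted p = 0.0300), by -0.42 in M.C and -0.44 in Mith, and was at -0.41 (adjusted p = 0.241) with the Actb covariate. Of 8 astrocyte markers 1, Gja1, fell (median -0.29). In M.C their mean level ran from 9.28 to 9.44 on wild-type and from 8.87 to 9.11 on R6/2 arrays, with no overlap. In Mith it ran from 9.20 to 9.50 and from 9.04 to 9.29, with overlap. Of 7 measured oligodendrocyte markers 4 fell (median -0.38). Their mean level in M.C ran from 9.59 to 10.13 on wild-type and from 9.31 to 9.60 on R6/2 arrays, overlapping through replicate 2 of each genotype. In Mith it ran from 10.49 to 10.72 and from 10.05 to 10.36, with no overlap. The part of these markers in the Kcnj10 result was not tested. In bulk tissue fewer cells of a type and less RNA per cell cannot be told apart.

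The G protein-gated rectifiers, which open on GABA-B and other receptor signals, were not called. Kcnj3 was at -0.04 ± 0.07, Kcnj6 at 0.06 ± 0.07 and Kcnj9 at 0.11 ± 0.05 (adjusted p = 0.324). Their intervals ran from -0.20 to 0.12, from -0.08 to 0.20 and from 0.00 to 0.22. The 5 probe sets of Kcnj6 all lay between 0.03 and 0.10, so the absence of a call for that gene did not depend on the probe set. The 3 probe sets of Kcnj9 ran from -0.03 to 0.11, on both sides of 0, and none was called. Kcnj13, a rectifier of the choroid plexus, was not analysed here.

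Tandem-pore leak channels and calcium-activated channels were not called over both cohorts. Of 8 Kcnk genes 6 were below 0 (median -0.08), with Kcnk2, the mechanosensitive TREK-1 channel, at -0.35 ± 0.11 (adjusted p = 0.0961) and Kcnk1, the TWIK-1 channel, at -0.24 ± 0.07 (adjusted p = 0.0747). The dimmer probe set of Kcnk1 was called, at -0.34 ± 0.07 (adjusted p = 0.0192). Kcnk1 was not among the genes named by rule and was added after its values were seen. Kcnma1, the BK channel pore, was at -0.16 ± 0.07 (adjusted p = 0.251). The 4 Kcnn genes, which encode the SK and IK channels, ran from -0.02 (Kcnn2) to 0.04 (Kcnn1) by the probe sets used. That was the narrowest range of the subfamilies with 4 or more genes. A dimmer probe set of Kcnn1 was at -0.11, on the other side of 0, and was not called. Kcnu1, a channel of sperm, was at 0.05 ± 0.05.

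Different probe sets of a gene often gave like values, but the spans were widest in called genes. Of the 20 genes with more than 1 probe set, 13 had all of them on the same side of 0, and the median span within a gene was 0.09. The span was above 0.3 in 2 genes, Kcnip2 (0.93) and Kcnip1 (0.38). Next came Kcnab1 (0.28) and Kcnab2 (0.24). All of these genes were called, but only Kcnab1 through more than 1 probe set. Counting a gene as called when any of its probe sets passed would add Kcnip3 and Kcnk1 and give 10 of 62. That looser rule favours genes with more probe sets, and the share of all named genes under it is not given here.

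**Figure D3:**
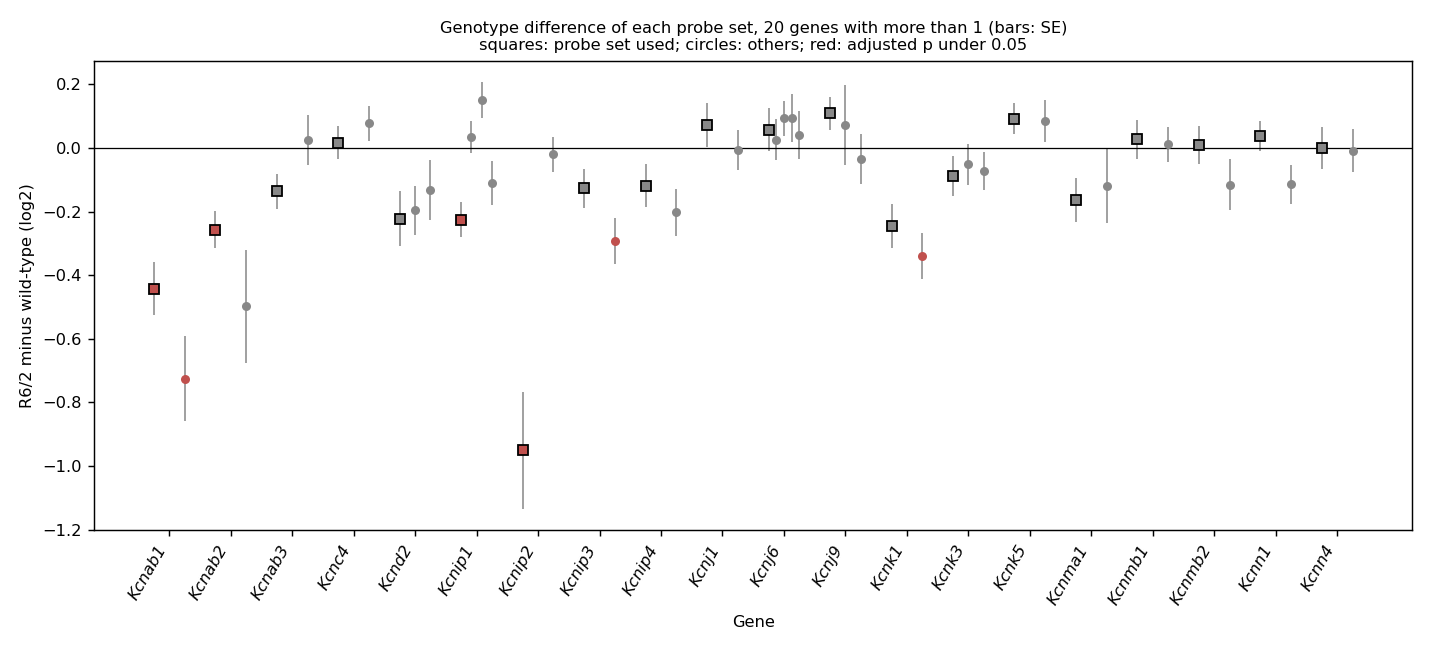
Genotype difference (log2, bars are SE) of every probe set of the 20 genes with more than 1. Squares with a black edge mark the probe set of highest mean and red marks adjusted p under 0.05. Both probe sets of Kcnab1 are red and below -0.4, whereas those of Kcnip2 lie at -0.95 and -0.02.

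The start regions of called genes were examined for short promoter motifs. RefSeq windows (GRCm38.p6) were held for 50 of the 62 genes and 7 of the 8 called genes, with none for Kcna1. The motifs were the GC box bound by Sp1-type factors, GGGCGG or its complement CCGCCC, the cyclic AMP response element TGACGTCA, its core TGACG or CGTCA, and the Egr site GCGTGGGCG or CGCCCACGC. They were searched on both strands in the 250 bases before each start. The full response element contains its core, and a GC box can overlap the last bases of an Egr site. The windows printed are those of the called genes Kcnab1 (chr3:64948962-64949211, plus strand), Kcnab2 (chr4:152477550-152477799, minus strand) and Kcnj10 (chr1:172340960-172341209, plus strand). They were the windows of called genes that lay outside the annotated span of the gene, and they are shown to let the motif letters be seen beside the falls. Capitals mark GC boxes and TGACG or CGTCA cores, 5′ to 3′ on the gene's strand.
Kcnab1: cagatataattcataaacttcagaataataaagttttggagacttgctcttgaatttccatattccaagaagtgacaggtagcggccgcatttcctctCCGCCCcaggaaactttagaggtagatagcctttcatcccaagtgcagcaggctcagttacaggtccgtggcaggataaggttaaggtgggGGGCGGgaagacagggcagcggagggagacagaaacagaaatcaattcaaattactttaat
Kcnab2: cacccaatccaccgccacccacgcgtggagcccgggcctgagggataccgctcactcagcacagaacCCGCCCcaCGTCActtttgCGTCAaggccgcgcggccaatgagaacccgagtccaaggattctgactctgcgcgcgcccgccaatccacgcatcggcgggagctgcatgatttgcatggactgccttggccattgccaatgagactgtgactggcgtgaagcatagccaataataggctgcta
Kcnj10: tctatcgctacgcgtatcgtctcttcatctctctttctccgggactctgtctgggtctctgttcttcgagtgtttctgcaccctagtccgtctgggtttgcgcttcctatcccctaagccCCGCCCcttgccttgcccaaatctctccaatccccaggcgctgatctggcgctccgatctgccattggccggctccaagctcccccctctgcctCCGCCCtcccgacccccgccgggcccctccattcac
A GC box was in 7 of the 13 windows of called genes, in 31 of 68 windows of all Kcn genes (45.6%) and in 32.7% of all 32851 windows. The full response element and the Egr site were in 0 of the 68 Kcn windows, and in 1.55% and 0.536% of all windows. The core TGACG or CGTCA was in 3 of the 13 windows of called genes (23.1%), in 10 of the 68 (14.7%) and in 17.8% of all windows. A match describes letters only and is no binding site.

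Genes outside the prefix that work with these channels were read from a list of 22, of which 16 had a named probe set. Of these 1, Dlg4, fell, against 2.04% of all named genes, and 0 rose, against 0.476%. A single call among 16 is too few to compare with that share. The median of the 16 was -0.12. Dlg4 encodes PSD-95, a scaffold that clusters Kv1 and Kir2 channels, and was at -0.44 ± 0.11 (adjusted p = 0.0382). Dlg2, a related scaffold, was at -0.41 ± 0.15 (adjusted p = 0.179). Dpp6, an auxiliary subunit of Kv4 channels beside the KChIPs, was at -0.11 ± 0.09 (adjusted p = 0.612). Hcn2, a cation channel that opposes potassium currents at rest, was at -0.14 ± 0.06 (adjusted p = 0.215).

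The cohorts were then read apart, each with its own wild-type arrays. In M.C 8 of 62 genes fell and 0 rose, against 2.1% and 0.145% of all named genes. They were Kcnip2, Kcnj4, Kcnk2, Kcnab1, Kcnq5, Kcna1, Kcnk1 and Kcnab2. The M.C count was 3 without R6/2 replicate 1 or wild-type replicate 1, 3 or 4, and 5 without R6/2 replicate 2. For these fits too the share of all named genes is not given here. In Mith 0 of 62 genes and 0% of all named genes were called by limma. At an unadjusted p under 0.05, 6 were lower in Mith, against 3.92% of named genes, and 1 was higher, against 5.16%. The median SE of the 62 genes was 0.08 in M.C and 0.10 in Mith, where fewer arrays were held. All 8 genes called over both cohorts were below 0 in each. They were picked by a fit of these same arrays, so the shared sign is no independent agreement between the cohorts. Across the 62 genes the M.C and Mith differences correlated with Pearson r = 0.45 and Spearman rho = 0.24, against 0.23 and 0.12 over all named genes. These are correlations across genes, which are not independent replicates, and the genes share the arrays of each cohort.

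**Figure D4:**
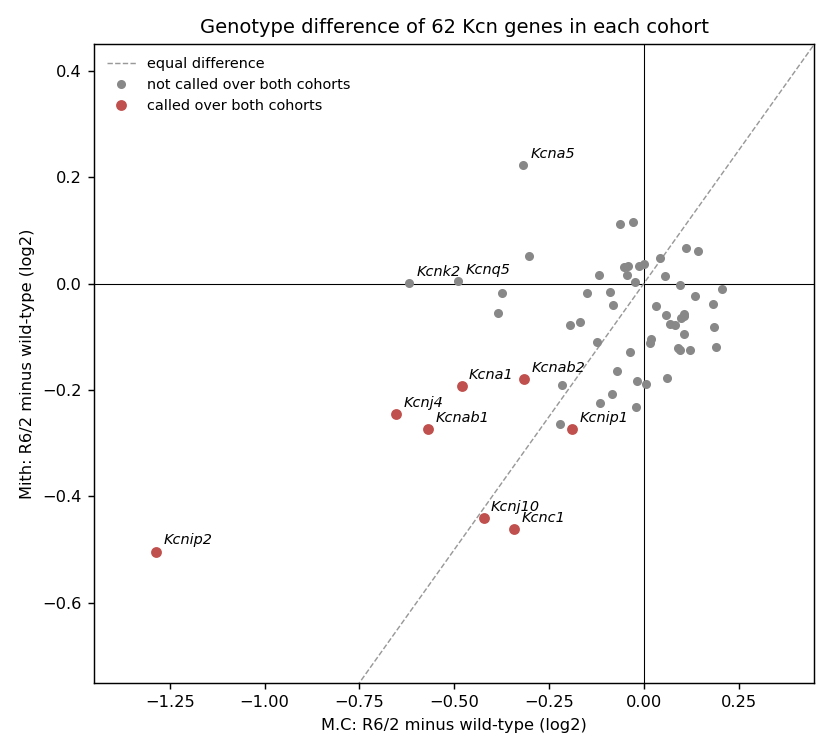
Genotype difference (R6/2 minus wild-type, log2) of the 62 Kcn genes in the M.C cohort (horizontal) and the Mith cohort (vertical), with the line of equal difference dashed. Red marks the 8 genes called over both cohorts, which were picked from these same arrays and lie below 0 on both axes. Kcnk2 and Kcnq5 lie far left of 0 in M.C and at 0.00 in Mith.

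The clearest contrast between cohorts was in Kcnk2. In M.C it was at 9.61, 9.58, 9.61 and 9.78 in wild-type and 8.84, 9.11, 9.17 and 8.99 in R6/2, with no overlap (-0.62 ± 0.08, adjusted p = 0.00424). In Mith it was at 9.12, 9.60 and 9.65 in wild-type and 9.38, 9.50 and 9.50 in R6/2, with overlap and a difference of 0.00 ± 0.13. The interaction, Mith minus M.C, was 0.62 with an interval from 0.28 to 0.96 (unadjusted p = 0.00142, adjusted p = 0.297), so it did not pass. Kcnip2 had an interaction of 0.78 ± 0.33 (adjusted p = 0.473), Kcna5, a delayed rectifier pore, 0.54 ± 0.18 (adjusted p = 0.359), Kcnq5 0.49 ± 0.20 (adjusted p = 0.457) and Kcnj4 0.41 ± 0.23 (adjusted p = 0.557). By limma 0 of 62 genes had a called interaction, 0% of all named genes did, and at an unadjusted p under 0.05 9 did, 14.5%, against 9.73%.

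Wild-type replicate 5 moved with these contrasts. It was the lowest of the 7 wild-type arrays for 4 of the 8 called genes, Kcnip2, Kcnj4, Kcna1 and Kcnab2, and for Kcnk2 and Kcnq5. Over all 62 genes it was the lowest for 12, fewer than the 20 of wild-type replicate 2, which was the lowest for 3 of the 8 called genes. Of 8 measured projection neuron markers 6 fell in R6/2, with a median of -0.65, and their mean level lay between 9.67 and 10.15 on the R6/2 arrays and between 10.39 and 10.75 on the wild-type arrays other than replicate 5, which lay within the R6/2 range. The mean of 5 thalamic markers, genes of a bordering tissue, was 8.53 on wild-type replicate 5. On the other Mith wild-type arrays it was 7.90 and 8.67, and on the Mith R6/2 arrays 7.95, 7.45 and 7.73. In M.C it ran from 7.09 to 7.31 in wild-type and from 7.12 to 7.37 in R6/2. The median genotype difference of the 5 markers was -0.66 in Mith and 0.07 in M.C, and 0 of them were called over both cohorts. Without wild-type replicate 5 the Mith difference was -0.76 for Kcnip2, -0.40 for Kcnj4, -0.17 for Kcnk2 and -0.16 for Kcnq5, and Mith still had 0 calls among the 62 genes. The part of the projection neuron and thalamic markers in the results, those of Mith included, was not tested.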

How the data were processed

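The authors deposited 1 table of log2 probe set signals for 14 arrays. The log2 scale was inferred from a range of 2.96 to 14.5. The methods of probe summary and normalization are not given in the sources used here. Tests left out 64 control probe sets. Because array medians of the deposited log2 values spanned 0.108, above a limit of 0.1, arrays were centred to share a median. Symbols are those of the platform annotation, and all 62 genes matched the RefSeq gene table by gene ID.

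A two-sided limma fit (limma 3.58.1, R 4.3.3) was made for every probe set, with genotype and cohort as terms, then within cohorts and as an interaction, and p-values were adjusted over all 22626 probe sets. The fit was tested on simulated data. Quality measures were compared by an exact permutation test over 3432 arrangements. Named genes were the called members, the largest difference per subfamily, the 5 largest interactions, members whose probe sets differed by over 0.3, and a set list. Kcnk1 and Kcnab3 were added after their values were seen, as were the fit of Mith without wild-type replicate 5 and the permutation within cohorts. The members and lists were chosen with earlier results of these data known. Alternatives covered the cohort term, scaling, covariate, weights, variance, signal filter, probe set choice, threshold and each array left out.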

Additional observations from a re-analysis of the deposited data

Results flagged for a closer look

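Among the 31 named genes, each with 7 arrays per genotype, 9 of 62 groups held an array whose gap to its nearest neighbour was a large share of the group's range, above Dixon's 95% critical value of 0.568. About 1 in 20 groups would be so by chance if all 7 arrays came from 1 distribution, but each group pools both cohorts. Wild-type replicate 5 was set apart in 3 of them: low for Kcnk2 (9.12 against 9.58 for the next array, a share of 0.694), low for Kcnip2 (7.48 against 8.15, 0.630) and high for Kcnj3 (8.04 against 7.83, 0.594). R6/2 replicate 2 was set apart in 2, low for Kcnip2 (6.42 against 7.17, 0.570) and high for Kcnip3 (9.02 against 8.87, 0.663), and it had the largest Actb 3′ minus 5′ difference of all arrays, 0.852. The other 4 groups were single cases. R6/2 replicate 6 was low for Kcne3 (3.55 against 3.72, 0.622). Wild-type replicate 7 was low for Kcnh3 (7.72 against 7.97, 0.590), wild-type replicate 6 low for Kcnma1 (9.11 against 9.36, 0.602), and wild-type replicate 3 high for Kcnn2 (7.36 against 7.13, 0.571). No interaction of a named gene passed its adjusted threshold.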

How the results depend on the processing

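The number of Kcn genes called lower over both cohorts, 8, was 1 with no cohort term, 5 with the values as deposited, 3 after quantile normalization, 0 with the Actb covariate and 1 at an adjusted p under 0.01, and it ran from 2 to 12 with 1 array left out. Array weights, trended variances, the signal filter and both other choices of probe set kept the count within 1.5 times of 8, though not always with the same genes. The number called higher was 0 under every alternative. Except with the Actb covariate, the share of all named genes called under these alternatives is not given here. In M.C the 8 falls became 3 after quantile normalization and ran from 3 to 9 with 1 array left out, and in Mith and for the interaction 0 genes were called under every alternative run. The 8 genes called over both cohorts kept their sign under every alternative to that fit. Some genes that were not called changed sign: Kcna4 (0.0973, from -0.15) and Kcns2 (0.00634) with the Actb covariate, Kcnh3 with array weights (-0.0147), and Kcnn1 with the mean of its probe sets (-0.0388). With 1 array left out, Kcnn2 ran from -0.0488 to 0.0230 (above 0 without R6/2 replicate 1 or 3 or wild-type replicate 3), Kcnh3 from -0.0296 to 0.0290 (below 0 without wild-type replicate 3 or 7 or R6/2 replicate 5) and Kcnj3 from -0.0678 to 0.0193 (above 0 without R6/2 or wild-type replicate 5). In Mith without wild-type replicate 5, an alternative chosen after seeing the data, Kcna2 was at -0.0539, Kcna4 at -0.0404, Kcnd2 at 0.0346, Kcnk2 at -0.169, Kcnq5 at -0.155 and Kcnu1 at 0.0119, each on the other side of 0 from its value with that array. The cause of these changes was not tested. The genotype differences in the Actb and Gapdh measures passed with genotype permuted within cohorts as well, a test added after seeing the data (exact permutation p = 0.0186 and 0.0143). No paired analysis was possible because the labels give no replicate numbers shared between the genotypes, and the numbers used here follow the order of the record. No detection calls were used here, so differences of dim probe sets such as those of Kcnj2 and Kcne3 have no stated background.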

Other observations

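Channel genes differed between the cohorts about as often as other genes. With genotype as a term, 20 of 62 (32.3%) were called between cohorts, against 31.3% of all named genes, 9 higher and 11 lower in Mith. The largest shifts, Mith minus M.C, were in Kcnh1 (-0.68 ± 0.07, adjusted p = 7.45e-06), Kcnd2 (0.64 ± 0.09, adjusted p = 5.78e-05), Kcnj10 (0.57 ± 0.10, adjusted p = 5.04e-04) and Kcnj4 (-0.54 ± 0.12, adjusted p = 0.00293). These shifts exceed the genotype difference of the same gene in all 4. For Kcnd2 the shift was in 1 probe set: the other 2 gave 0.05 and 0.08, although all 3 gave like genotype differences from -0.22 to -0.13. Of the 20 genes with more than 1 probe set, 5 had cohort shifts that spanned over 0.3. The mean level of thalamic markers ran from 7.09 to 7.37 in M.C and from 7.45 to 8.67 in Mith, that of oligodendrocyte markers from 9.31 to 10.13 and from 10.05 to 10.72, and their part in the shifts was not tested.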
